A study of Mus musculus with 6 samples.

Results

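Endothelial cells line the blood and lymph vessels, and 10 genes used as their markers were followed here in mouse ileum: Pecam1, Cdh5, Esam, Cldn5, Kdr, Tek, Eng, Vwf, Egfl7 and Plvap. Every probe set that the platform annotation gave to 1 of these symbols alone was taken, which gave 15 probe sets for the 10 genes, out of 22626 probe sets and 12393 genes in all. Egfl7 had 4 probe sets, Eng and Cdh5 had 2 each, and the other genes had 1. The study profiled ileum on 6 Affymetrix arrays, in 3 groups of 2. All mice were wild-type males of mixed strain (C57BL/6:129Sv) and 8 to 10 months of age. In the BDL_GW4064 group the common bile duct had been ligated, and the FXR agonist GW4064, which activates the nuclear receptor for bile acids, had been given by gavage (100 mg/kg/day) over the 2 days that preceded surgery and the 5 that followed. BDL_Vehicle mice had the ligation and the Tween80 and methylcellulose vehicle on the same schedule. Sham_Vehicle mice had the incision and handling of the duct with no ligation, and the same vehicle. Mice given GW4064 with a sham operation were not analysed here, so any difference with GW4064 applies to ligated mice. The labels do not tell if a group's arrays stand for different animals, so p-values measure the spread between these samples only, which may be technical.

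The members hold different places in the vessel wall. Cdh5 (VE-cadherin), Pecam1 (CD31), Esam and Cldn5 (claudin-5) encode proteins of the contacts between endothelial cells. Kdr (VEGF receptor VEGFR2), Tek (angiopoietin receptor Tie2) and Eng (endoglin, a co-receptor for BMP and TGF-beta ligands) encode surface receptors. Vwf (von Willebrand factor) is stored in endothelial cells and platelets, and Egfl7 encodes a secreted endothelial protein. Plvap encodes the protein of the diaphragms that span the fenestrae of capillaries, and the capillaries of intestinal villi, which carry absorbed nutrients away, are of this fenestrated kind.

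Values are MAS5 signals on a linear scale, scaled by the authors to a common level, with a 2% trimmed mean of 200.1 on each array. Differences are of log2(signal + 4). Arrays give no count depth, and 2 of them per group limit the precision. Sham_Vehicle replicate 2 had a 3' to 5' actin signal ratio of 1.73, where the others had 1.09 to 1.22. A control for the 5' end of 18S rRNA split the arrays into sets, with readings of 8.6 to 13.3 on both BDL_GW4064 arrays and BDL_Vehicle replicate 2, and 67.3 to 88.7 on BDL_Vehicle replicate 1 and both Sham_Vehicle arrays. BDL_Vehicle was the only group with an array in each set. A fit that holds the array set constant thus rests on 1 BDL_Vehicle array in each comparison with that group. In BDL_GW4064 against Sham_Vehicle, that fit takes the difference between the sets from the BDL_Vehicle arrays alone. Fgf15, the ileal FXR target that reports on the treatment, read 972.1 and 809.6 in BDL_GW4064, 5.5 and 3.4 in BDL_Vehicle and 316.2 and 479.6 in Sham_Vehicle.

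Promoter windows from RefSeq (GRCm38.p6, 250 bases before to 50 after the annotated start, on the gene's strand) were held for 5 of the 10 members. Those printed below belong to genes whose brightest probe set and at least 1 other, or only probe set, read higher on both BDL_GW4064 arrays than on both BDL_Vehicle arrays. In order of the limma p the first 4 such genes were Esam, Eng, Egfl7 and Kdr, and sequences are shown for Eng, Kdr and 1 of the 3 annotated starts of Egfl7. Capitals mark GGAA or its complement TTCC, the core that ETS factors, the family of Erg and Fli1 in endothelium, bind.
Eng, chr2:32646345-32646644, plus strand: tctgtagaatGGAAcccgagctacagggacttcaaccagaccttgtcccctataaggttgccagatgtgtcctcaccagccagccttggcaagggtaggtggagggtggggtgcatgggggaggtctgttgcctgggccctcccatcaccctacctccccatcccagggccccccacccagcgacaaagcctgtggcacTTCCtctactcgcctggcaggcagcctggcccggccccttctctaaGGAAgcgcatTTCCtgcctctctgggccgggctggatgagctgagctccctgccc
Kdr, chr5:75978406-75978705, minus strand: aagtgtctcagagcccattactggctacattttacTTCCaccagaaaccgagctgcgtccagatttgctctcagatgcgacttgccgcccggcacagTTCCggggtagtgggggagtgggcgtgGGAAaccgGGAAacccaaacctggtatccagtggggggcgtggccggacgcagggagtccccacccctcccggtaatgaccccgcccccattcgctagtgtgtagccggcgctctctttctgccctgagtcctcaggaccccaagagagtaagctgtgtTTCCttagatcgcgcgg
Egfl7, chr2:26583615-26583914, plus strand: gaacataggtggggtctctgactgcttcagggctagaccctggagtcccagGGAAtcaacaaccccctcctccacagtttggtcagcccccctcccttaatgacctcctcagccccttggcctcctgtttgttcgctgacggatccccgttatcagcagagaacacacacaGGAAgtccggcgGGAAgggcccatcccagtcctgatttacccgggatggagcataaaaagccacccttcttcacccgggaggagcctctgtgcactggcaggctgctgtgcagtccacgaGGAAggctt

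These windows held 4 matches to GGAA in Eng, 5 in Kdr and 4 in the Egfl7 window shown. The same core was present in 96.0% of all 32851 promoter windows, with a median of 3 matches, so its presence sets none of these genes apart. The longer ETS motif CAGGAAGT occurred once, in the Egfl7 window shown, from position -81 before the start, and 3.33% of all windows held it. That Egfl7 start was chosen for printing because it held this motif, after its letters were seen. The SOX motif ACAAAG, present in 18.7% of all windows, was found in the Eng window from position -67, in Tek from -26 and in another Egfl7 start from -234. The GATA motif AGATAA, present in 11.2% of all windows, was found in Tek alone, and the Cldn5 window held none of the 4 motifs, which were searched on both strands.

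All 10 genes were at the dim end or the middle of the array's range, and this sets how firmly they can be read. Without detection calls, a signal of 37.1, below which lay the lowest 40% of probe sets by mean log2 signal, served as the floor. For 7 genes the brightest probe set was past this filter, from Cdh5 at percentile 40.2 of all probe sets to Plvap at percentile 68.7. Pecam1, Cldn5 and Tek were below it, at percentiles 38.9, 39.5 and 32.7, and their differences come from a fit of all probe sets with no filter. The mean levels at the edge of the filter were close, at 37.6 for Cdh5 just inside and 36.3 for Cldn5 just outside. Tek exceeded the floor on 0 of 6 arrays, so its signals are given with no fold. All members read above 0 on every array, and Plvap, Eng, Egfl7, Kdr and Esam read above the floor on all 6.

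The main pattern lay in the GW4064 arrays. The members, and the gene lists further below, were chosen with earlier results of these data known. The shares over all genes thus give scale and are no test of the members. With GW4064, 10 of 10 members had a higher mean log2 signal than in BDL_Vehicle, where 52.3% of all 12393 genes did. In 9 of them both BDL_GW4064 arrays lay above both BDL_Vehicle arrays, against 19.3% of all genes, and 0 lay below without overlap, against 15.4% of all genes. The 9 include Tek, with all 6 signals below the floor, and Pecam1 and Cldn5, with both BDL_Vehicle signals below it. Of the 7 members past the filter, 6 were higher without overlap, against 19.1% of genes past it. In 7 of the 10 (Plvap, Eng, Egfl7, Kdr, Esam, Vwf and Pecam1), both BDL_GW4064 arrays lay above all 4 vehicle arrays, against 9.72% of all genes. The median log2 difference over the 7 tested members was 0.79, and 0.60 when the array set was held constant, while the median of all 7919 genes past the filter was 0.00. In bulk tissue, more endothelial cells and more RNA per cell cannot be told apart. Markers of fibroblasts and of some other gut wall cells were also higher with GW4064, as given below. The part of those cells in the members' signals was not tested. The plot of signals by array shows these values for all 10 genes.

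**Figure D1:**
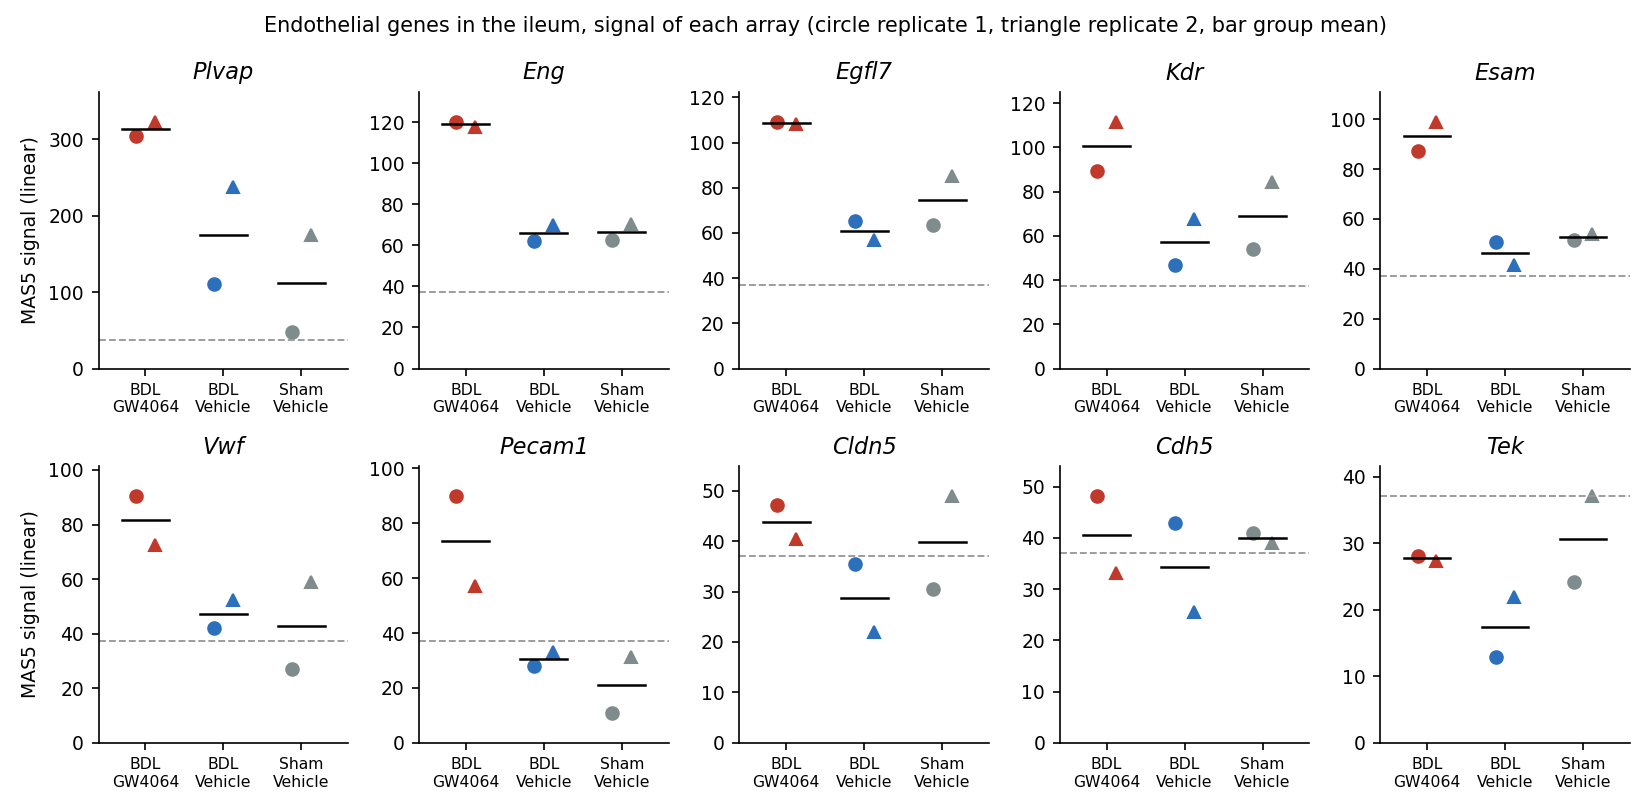
MAS5 signal (linear axis from 0) of the brightest probe set of each of the 10 genes on each array, with circles for replicate 1, triangles for replicate 2, bars for group means and a dashed line at the floor of 37.1. In Eng, Egfl7 and Esam the 2 BDL_GW4064 arrays stand above all 4 vehicle arrays with little spread, in Plvap the vehicle arrays range from 48.0 to 237.6, and in Cdh5 the groups overlap.

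None of these differences passed limma's test after adjustment over all 13575 probe sets (0 of 7 members, smallest adjusted p = 0.312), where 7 probe sets, or 0.0516%, passed. At an unadjusted p under 0.05, 4 of the 7 tested members were counted, all higher (Esam, Eng, Egfl7 and Kdr), against 7.48% of the 7919 genes in either direction. An exact permutation test on any gene alone cannot go below 0.333 (two-sided) with 2 arrays against 2. What follows is a description of signals, with no call for any member.

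Among the genes of cell contacts, Esam, an immunoglobulin-family adhesion protein of endothelial tight junctions and platelets, read 87.2 and 99.0 in BDL_GW4064, 50.8 and 41.7 in BDL_Vehicle and 51.4 and 54.0 in Sham_Vehicle. The BDL_GW4064 arrays were the highest of the 6, and the 4 vehicle arrays lay close together. Its log2 difference was 0.95 ± 0.22 (SE) against BDL_Vehicle, 1.94-fold, with a 95% interval of 0.44 to 1.47 and a limma adjusted p of 0.312. Holding the array set constant, it was 1.08.

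Pecam1, an adhesion molecule of endothelium that platelets and leukocytes also carry, read 90.0 and 57.1 in BDL_GW4064, 27.9 and 33.1 in BDL_Vehicle and 10.8 and 31.2 in Sham_Vehicle. Only the BDL_GW4064 arrays were above the floor, so the fold was at least 1.84 against either vehicle group. The limma adjusted p against BDL_Vehicle was 0.691 in the fit with no filter.

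Cldn5, the claudin of endothelial tight junctions, read 47.2 and 40.5 in BDL_GW4064, 35.5 and 21.9 in BDL_Vehicle and 30.5 and 49.0 in Sham_Vehicle. It was at least 1.16-fold above BDL_Vehicle, and its BDL_GW4064 arrays fell between the Sham_Vehicle arrays. Cdh5, the cadherin of endothelial adherens junctions, read 48.2 and 33.1 in BDL_GW4064, 43.0 and 25.6 in BDL_Vehicle and 41.0 and 39.0 in Sham_Vehicle. All 3 groups overlapped, and the log2 difference against BDL_Vehicle was 0.24 ± 0.33 (SE), with a 95% interval of -0.52 to 1.00, which includes 0.79, the median over the tested members. Without BDL_Vehicle replicate 2 it was -0.095, and without BDL_GW4064 replicate 1 it was -0.0077.

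Among the receptors, Eng read 120.3 and 117.6 in BDL_GW4064, 61.9 and 69.8 in BDL_Vehicle and 62.7 and 70.5 in Sham_Vehicle. Both vehicle groups gave nearly the same values, and the BDL_GW4064 arrays stood clear of them. The log2 difference was 0.82 ± 0.19 (SE) against BDL_Vehicle, 1.76-fold, with a 95% interval of 0.37 to 1.27 and a limma adjusted p of 0.329. Holding the array set constant, it was 0.74.

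Kdr, the main signalling receptor for VEGF-A, read 89.4 and 111.6 in BDL_GW4064, 46.6 and 67.6 in BDL_Vehicle and 54.0 and 84.1 in Sham_Vehicle. The BDL_GW4064 arrays lay above all 4 vehicle arrays, though the gap to Sham_Vehicle replicate 2 was small, and the vehicle groups overlapped. The log2 difference was 0.79 ± 0.29 (SE) against BDL_Vehicle, 1.73-fold (limma adjusted p = 0.567), and 0.54 at constant array set. Tek read 28.1 and 27.3 in BDL_GW4064, 12.9 and 21.9 in BDL_Vehicle and 24.2 and 37.1 in Sham_Vehicle, and its BDL_GW4064 arrays lay between the Sham_Vehicle arrays. All these signals were below the floor.

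Of the secreted and stored proteins, Egfl7 read 109.3 and 108.1 in BDL_GW4064, 65.4 and 56.8 in BDL_Vehicle and 63.7 and 85.1 in Sham_Vehicle on its brightest probe set. The BDL_GW4064 arrays were nearly equal and above the other 4. The log2 difference against BDL_Vehicle was 0.79 ± 0.22 (SE), 1.73-fold, with a 95% interval of 0.29 to 1.30 (limma adjusted p = 0.394), and 0.89 at constant array set. Vwf read 90.5 and 72.6 in BDL_GW4064, 41.9 and 52.2 in BDL_Vehicle and 27.0 and 58.8 in Sham_Vehicle. The BDL_GW4064 arrays lay above all 4 vehicle arrays, and the BDL_Vehicle arrays lay between the Sham_Vehicle arrays. The log2 difference against BDL_Vehicle was 0.74 ± 0.35 (SE, limma adjusted p = 0.722).

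Plvap was the brightest member and the least even within both vehicle groups. It read 304.5 and 322.9 in BDL_GW4064, 110.6 and 237.6 in BDL_Vehicle and 48.0 and 175.2 in Sham_Vehicle. Both BDL_GW4064 arrays were higher than any other array, but replicate 2 exceeded replicate 1 by 1.08 on the log2 scale in BDL_Vehicle and by 1.78 in Sham_Vehicle. The log2 difference against BDL_Vehicle was imprecise, at 0.93 ± 0.55 (SE) with a 95% interval of -0.35 to 2.21 (limma adjusted p = 0.795). It was 0.39 without BDL_Vehicle replicate 1, which equals the value at constant array set, and 1.47 without BDL_Vehicle replicate 2.

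**Figure D2:**
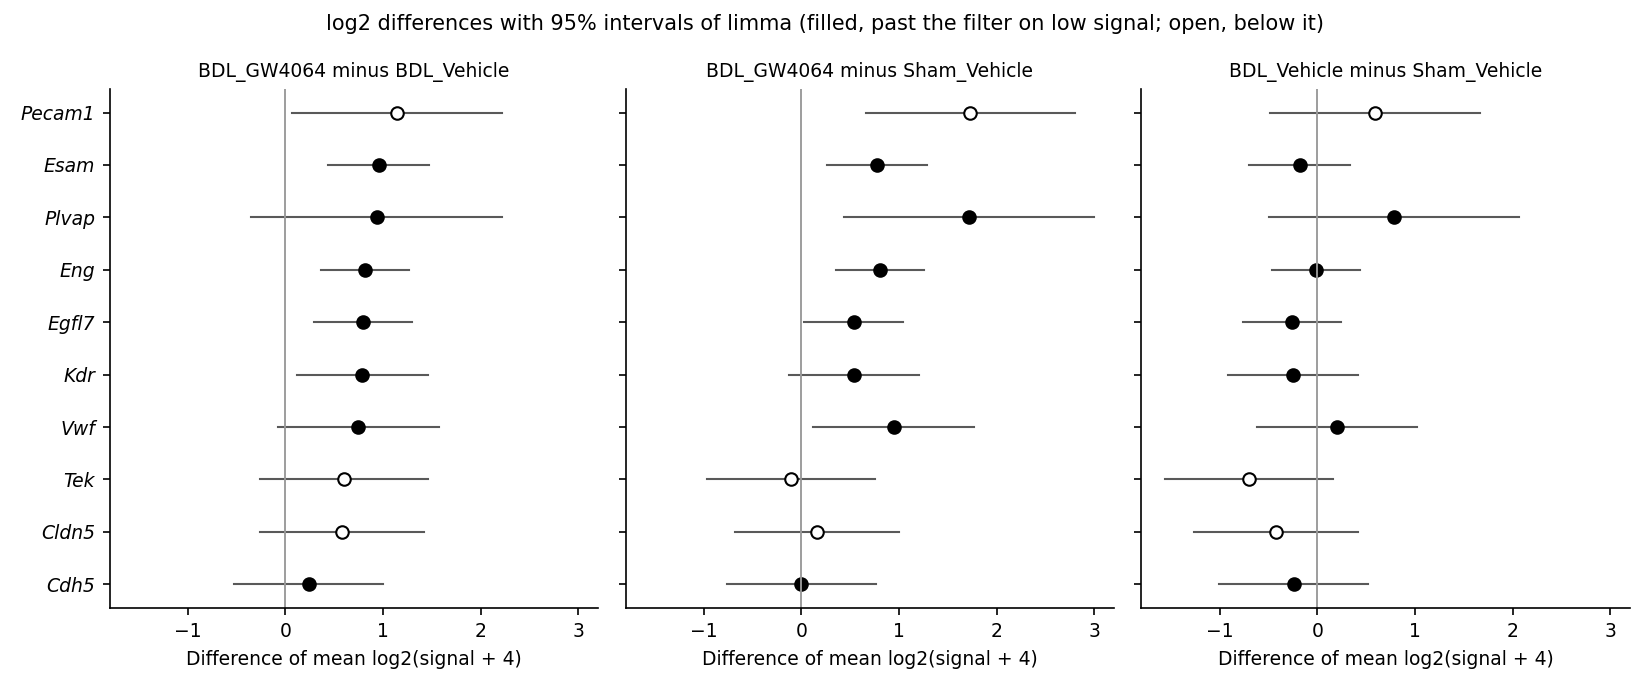
Differences of mean log2(signal + 4) for the 10 genes (rows) in the 3 comparisons (panels), with 95% intervals of limma; filled points passed the filter on low signal, and open points did not and rest on signals near or below the floor. Against BDL_Vehicle all 10 points lie above 0, the filled ones from 0.24 (Cdh5) to 0.95 (Esam), while BDL_Vehicle against Sham_Vehicle gives points on both sides of 0 with intervals that all include it.

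Where a gene had more than 1 probe set, the probe sets did not all read alike. Of the 15 probe sets, 15 had a higher mean log2 signal in BDL_GW4064 than in BDL_Vehicle, where 52.3% of all genes did. In 13 there was no overlap, against 19.3% of all genes, each by its brightest probe set. The share over all probe sets was not counted, and probe sets of 1 gene are not independent. The probe sets with overlap were 1433956_at of Cdh5 and 1421335_a_at of Egfl7. The Egfl7 probe set read 68.9 and 51.2 in BDL_GW4064, 51.9 and 55.7 in BDL_Vehicle and 72.7 and 61.1 in Sham_Vehicle. Its log2 difference against BDL_Vehicle was 0.14 ± 0.24 (SE), against 0.79 ± 0.22 for 1435823_x_at, 0.80 ± 0.29 for 1451428_x_at and 0.84 ± 0.27 for 1451427_a_at of the same gene. Probe sets whose names end in x_at may share probes with other transcripts. Against Sham_Vehicle, 1435823_x_at and 1451428_x_at were higher with no overlap, while 1451427_a_at (70.8 and 75.0 in BDL_GW4064, 77.2 and 53.4 in Sham_Vehicle) overlapped. The second Eng probe set and the second Cdh5 probe set stayed under the floor on all 6 arrays, and their BDL_GW4064 arrays lay above both BDL_Vehicle arrays.

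**Figure D3:**
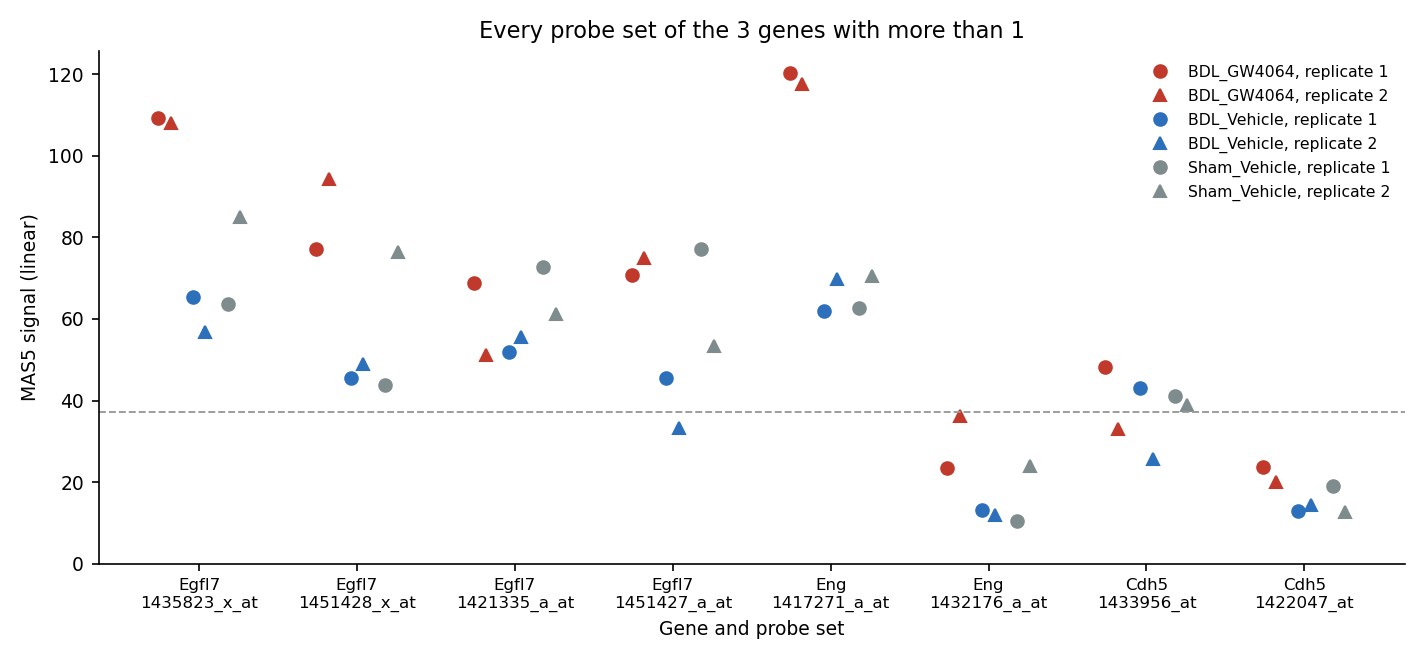
MAS5 signal (linear axis from 0) of each probe set of Egfl7, Eng and Cdh5 on each array, coloured by group, with circles for replicate 1, triangles for replicate 2 and a dashed line at the floor of 37.1. For Egfl7, 3 of the 4 probe sets have both BDL_GW4064 arrays above both BDL_Vehicle arrays, and 1421335_a_at does not.

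Against Sham_Vehicle, BDL_GW4064 gave a similar but less even picture, and this comparison shares its BDL_GW4064 arrays with the one above. The mean log2 signal was higher in 9 of 10 members, against 48% of all genes, and Tek was the exception. In 7 members the BDL_GW4064 arrays lay above both Sham_Vehicle arrays, against 20.6% of all genes, and 0 lay below without overlap, against 23.7%. The median log2 difference of the 7 tested members was 0.77, against 0.01 for all genes past the filter, and 0 of 7 passed limma's test (smallest adjusted p = 0.176, for Eng), where 0.0368% of probe sets did. At an unadjusted p under 0.05, 5 of the 7 were counted, all higher (Plvap, Vwf, Eng, Esam and Egfl7), against 14.2% of all genes.

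The log2 differences of the 7 tested members against Sham_Vehicle ran from 0.00 ± 0.33 (SE) for Cdh5 to 1.72 ± 0.55 for Plvap, with 0.80 ± 0.19 for Eng, 0.77 ± 0.22 for Esam, 0.95 ± 0.35 for Vwf and 0.54 for both Kdr and Egfl7. At constant array set, this comparison rests on the difference between the BDL_Vehicle arrays. All BDL_GW4064 arrays lie in 1 set and all Sham_Vehicle arrays in the other. For Plvap the log2 difference was 0.64 at constant array set, 0.83 without Sham_Vehicle replicate 1 and 2.61 without Sham_Vehicle replicate 2. For Kdr it was 0.039 at constant array set, 0.24 without Sham_Vehicle replicate 1 and 0.84 without Sham_Vehicle replicate 2. For Vwf it was 0.44 without Sham_Vehicle replicate 1 and 1.46 without Sham_Vehicle replicate 2. For Egfl7 it was 0.34 without Sham_Vehicle replicate 1 and 0.27 as a mean over its probe sets. The median over the tested members was 0.66 at constant array set, and it also differed with the Sham_Vehicle array used. Without Sham_Vehicle replicate 1 the median was 0.44, and without Sham_Vehicle replicate 2, whose actin ratio was highest, it was 0.84. Within Sham_Vehicle, replicate 2 exceeded replicate 1 in 6 of the 7 tested members, by a median of 0.40 on the log2 scale, while the median over all genes was -0.0044. In BDL_Vehicle this median was 0.16, and in BDL_GW4064 it was -0.02.

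Ligation without GW4064 gave values on both sides of Sham_Vehicle. BDL_Vehicle had a higher mean log2 signal than Sham_Vehicle in 3 of 10 (Pecam1, Vwf and Plvap) and a lower one in 7, where 43% of all genes were higher. Without overlap, 0 members were higher, against 14.5% of all genes, and 2 were lower (Esam and Tek), against 21.4%. Of the 7 tested members 0 passed limma's test (smallest adjusted p = 0.802), against 0.0295% of all probe sets, and 0 were counted at an unadjusted p under 0.05, against 6.01% of all genes. The median log2 difference was -0.18 with all arrays, 0.053 without Sham_Vehicle replicate 2, 0.0024 without BDL_Vehicle replicate 1 and -0.049 at constant array set. For Eng the difference was -0.02 ± 0.19 (SE), with a 95% interval of -0.47 to 0.44, and its sign was positive after quantile normalisation (0.047) or median centring (0.035). For Esam it was -0.18 ± 0.22, with an interval of -0.69 to 0.33. The counts above use the brightest probe set of each gene. Over all 15 probe sets, 3 had a higher mean log2 signal than in Sham_Vehicle, and 4 were lower without overlap. The share over all probe sets was not counted. Among these 4 were 1451427_a_at and 1421335_a_at of Egfl7. For 1451427_a_at the difference was -0.67 ± 0.27 (SE), with a 95% interval of -1.29 to -0.04. Its limma p was 0.039 unadjusted and 0.751 adjusted. The signs for Plvap (0.79 ± 0.55) and Vwf (0.20 ± 0.35) were negative without Sham_Vehicle replicate 1.

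Across the 6 arrays the members largely shared 1 profile. Among the 7 tested members, 19 of 21 pairs had a Pearson r above 0 over the 6 arrays, with a median of 0.77, while 50.1% of all gene pairs were above 0 and their median was 0.00. The closest pairs were Vwf with Plvap (0.94), Esam with Egfl7 (0.94) and Esam with Eng (0.93). Cdh5 stood apart, from -0.28 with Plvap to 0.39 with Egfl7. These correlations describe 6 arrays of 3 groups that share the group differences above. The mean standardised profile of the members was 1.05 and 0.88 in BDL_GW4064, -0.56 and -0.60 in BDL_Vehicle and -0.83 and 0.05 in Sham_Vehicle.

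Of the 7912 other genes past the filter, the 8 most like this profile had an r of 0.98 to 0.99, and 115 genes (1.45%) had an r above 0.9. They were the collagen gene Col6a3, the matrix glycoprotein gene Tnc (tenascin-C), Dkk3, the laminin chain gene Lama5, the oncostatin M receptor gene Osmr, Cd93, Slc43a3 and the receptor tyrosine kinase gene Axl. Cd93, which encodes a surface glycoprotein of endothelial and myeloid cells, read 70.9 and 68.0 in BDL_GW4064, 40.7 and 40.3 in BDL_Vehicle and 32.9 and 54.2 in Sham_Vehicle. Tnc read 139.1 and 130.7 in BDL_GW4064, 70.4 and 71.0 in BDL_Vehicle and 55.9 and 87.2 in Sham_Vehicle.

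Other genes of vessel growth were taken as lists. Of 16 genes for VEGF and angiopoietin ligands and their receptors, 7 passed the filter, 6 of them were higher in BDL_GW4064 than in BDL_Vehicle with no overlap (19.1% of genes past the filter were), and the median log2 difference was 0.61. None of the 7 passed limma's test (0 of 7, smallest adjusted p = 0.308). Vegfa, the ligand of Kdr, read 214.7 and 213.6 in BDL_GW4064, 137.2 and 127.1 in BDL_Vehicle and 158.7 and 172.5 in Sham_Vehicle. Its log2 difference against BDL_Vehicle was 0.68 ± 0.16 (SE), and the BDL_GW4064 arrays were again the highest of the 6. The VEGF co-receptor gene Nrp1 (0.80 ± 0.38), the lymphatic VEGF receptor gene Flt4 (0.53 ± 0.26) and the apelin receptor gene Aplnr (0.99 ± 0.52) were also higher than in BDL_Vehicle without overlap. Against Sham_Vehicle, 2 of the 7 were higher with no overlap, where 25% of genes past the filter were, and the median was 0.36.

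Of 31 other endothelial surface and signalling genes, 13 passed the filter, and 9 of them had higher and 4 lower values with GW4064 than in BDL_Vehicle, with a median log2 difference of 0.31. With no overlap 7 of the 13 were higher and 1 lower, against 19.1% and 16.7% of genes past the filter, and 0 passed limma's test (smallest adjusted p = 0.544). Cd93 had a difference of 0.72 ± 0.28 (SE), the endothelin-converting enzyme gene Ece1 0.62 ± 0.22 and the endothelin receptor gene Ednrb 0.65 ± 0.33. The caveolin gene Cav1, which muscle and fat also express, had 1.27 ± 0.49, with 119.1 and 411.6 in BDL_GW4064 against 94.0 and 86.2 in BDL_Vehicle. Compared with Sham_Vehicle, 4 of the 13 were higher and 2 lower with no overlap, and the median was 0.30. Of the 7919 genes past the filter, 1978 were higher and 1898 lower in that way.

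The endothelial transcription factors past the filter did not share 1 direction. Of 18 listed, 6 passed the filter, 3 were higher and 3 lower than in BDL_Vehicle, with a median of 0.08. Erg and Fli1 were not among the 6. The flow-responsive factor gene Klf2 read 74.6 and 74.3 in BDL_GW4064 against 50.0 and 49.8 in BDL_Vehicle (0.54 ± 0.24, SE), Mef2c had a difference of 0.33 ± 0.23, and the venous factor gene Nr2f2 had -0.33 ± 0.22. Klf4, which the gut epithelium also expresses, had -0.43 ± 0.12, and 0 of the 6 passed limma's test (smallest adjusted p = 0.405). Compared with Sham_Vehicle, 2 of the 6 were higher and 2 lower with no overlap, and the median was -0.06. Of the 7919 genes past the filter, 1978 were higher and 1898 lower in that way. Of 9 lymphatic genes 3 passed the filter, with 0 past the test: Stab1, a scavenger receptor gene of sinusoidal and lymphatic endothelium and of macrophages (0.78 ± 0.21), Reln (0.54 ± 0.27) and the hyaluronan receptor gene Lyve1 (-0.05 ± 0.29). Of 7 leukocyte adhesion genes 4 passed the filter, and all 4 were higher with no overlap, against 19.1% of genes past the filter. Their median was 0.33, and 0 passed the test (smallest limma adjusted p = 0.750). They were Ackr1 (0.55 ± 0.28), Cd44 (0.27 ± 0.20), Vcam1 (0.32 ± 0.26) and Madcam1 (0.34 ± 0.28). The lower BDL_GW4064 array of Madcam1 read 42.3 against 42.2 in the higher BDL_Vehicle array. Compared with Sham_Vehicle, 2 of the 4 leukocyte adhesion genes and 1 of the 3 lymphatic genes were higher with no overlap. There 25% of genes past the filter were, and the list medians were 0.19 and 0.12. Vcam1 (-0.04 ± 0.26) and Ackr1 (0.08 ± 0.28) overlapped with Sham_Vehicle. Hypoxia target genes had 5 higher and 6 lower of 11 past the filter and a median of -0.02, with 0 past the test (smallest adjusted p = 0.817). Bnip3 (0.53 ± 0.34), P4ha1 (0.43 ± 0.31), Slc2a1 (0.18 ± 0.18) and Pdk1 (-0.16 ± 0.17) had the smallest p of that list.

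Markers of some other cells of the gut wall were also higher with GW4064. All 10 fibroblast markers (10 of 10 past the filter) were higher in BDL_GW4064 than in BDL_Vehicle with no overlap, against 19.1% of genes past the filter, with a median of 1.47, and Fn1 passed limma's test (adjusted p = 0.0094). Their summed signal was 4091.9 and 4876.7 in BDL_GW4064, 1320.0 and 1751.4 in BDL_Vehicle and 1323.6 and 2145.2 in Sham_Vehicle. Smooth muscle markers were higher in 8 of 8 past the filter, but their summed signal was 1989.5 and 12926.9 in BDL_GW4064, 1635.2 and 2019.5 in BDL_Vehicle and 1982.8 and 2173.7 in Sham_Vehicle. The high value was thus that of BDL_GW4064 replicate 2 alone. The summed signal of the 10 endothelial members was 1014.7 and 989.8 in BDL_GW4064, 496.5 and 628.2 in BDL_Vehicle and 413.3 and 684.0 in Sham_Vehicle, and the median difference of the tested members against BDL_Vehicle was 0.83 without BDL_GW4064 replicate 2 and 0.80 without BDL_GW4064 replicate 1. Mesenteric fat markers summed to 485.9 and 1199.0 in BDL_GW4064, 236.2 and 447.2 in BDL_Vehicle and 347.8 and 615.4 in Sham_Vehicle, with 4 of 4 past the filter higher. With no overlap 5 of the 8 smooth muscle markers and 2 of the 4 fat markers were higher than in BDL_Vehicle. Of genes past the filter, 19.1% were.

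Of 7 pericyte and mural markers 6 passed the filter and 5 were higher, with a median of 0.59. With no overlap 3 of the 6 were higher, against 19.1% of genes past the filter. Anpep, the exception, read 4533.3 to 5029.4 over the 6 arrays. Rgs5 read 333.0 and 1159.2 in BDL_GW4064 against 79.7 and 131.7 in BDL_Vehicle. Kcnj8 read 36.8 and 113.2 against 23.1 and 32.8, so both were highest in BDL_GW4064 replicate 2. Compared with Sham_Vehicle, 2 of the 6 mural markers were higher and 1 lower with no overlap, and the median was 0.26. Of the 7919 genes past the filter, 1978 were higher and 1898 lower in that way. Platelet markers, which matter here because platelets hold Vwf, Pecam1 and Esam, gave 3 past the filter, of which 2 were higher and 0 were so without overlap. Pf4 read 39.4 and 53.6 in BDL_GW4064 against 58.3 and 34.3 in BDL_Vehicle, and Itga2b read 52.6 and 41.7 in BDL_GW4064 against 50.8 and 53.8 in BDL_Vehicle. Gp1bb read 914.1 and 1119.4 in BDL_GW4064, 877.5 and 940.2 in BDL_Vehicle and 753.3 and 822.0 in Sham_Vehicle. Its log2 difference against BDL_Vehicle was 0.15 ± 0.14 (SE). Against Sham_Vehicle, 2 of the 3 platelet markers were higher without overlap, where 25% of genes past the filter were. Most of the platelet list's summed signal came from Gp1bb. The sum was 1020.2 and 1230.0 in BDL_GW4064, 1007.6 and 1042.5 in BDL_Vehicle and 875.2 and 913.3 in Sham_Vehicle. Macrophage markers were higher than in BDL_Vehicle in 8 of 9, where 3991 of 7919 genes past the filter were, and their median was 0.42. With no overlap 6 of the 9 were higher, against 19.1% of those genes, and 0 passed limma's test (smallest adjusted p = 0.164). Compared with Sham_Vehicle, 7 of the 9 were higher with no overlap, against 25%, and the median was 0.57. Their summed signals were 2988.6 and 2710.3 in BDL_GW4064, 2486.2 and 1848.3 in BDL_Vehicle and 1586.7 and 1751.7 in Sham_Vehicle. Epithelial markers were higher than in BDL_Vehicle in 2 of 7 and lymphocyte markers in 4 of 6, with medians of -0.03 and 0.12. Of the red cell list 0 genes passed the filter. The mesothelium and liver lists had 1 each, Krt19 and Ttr, with log2 differences of -0.03 and -0.01. Krt19 read 3885.9 to 4702.9 over the 6 arrays, so its difference does not describe the dimmer mesothelium genes. Of the 4 mesothelium genes on the array, 1 was below the floor in BDL_GW4064 replicate 2 and 3 were on each other array. No marker of any of these lists was at 0 on any array, and the part of these cells in the members' signals was not tested.

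**Figure D4:**
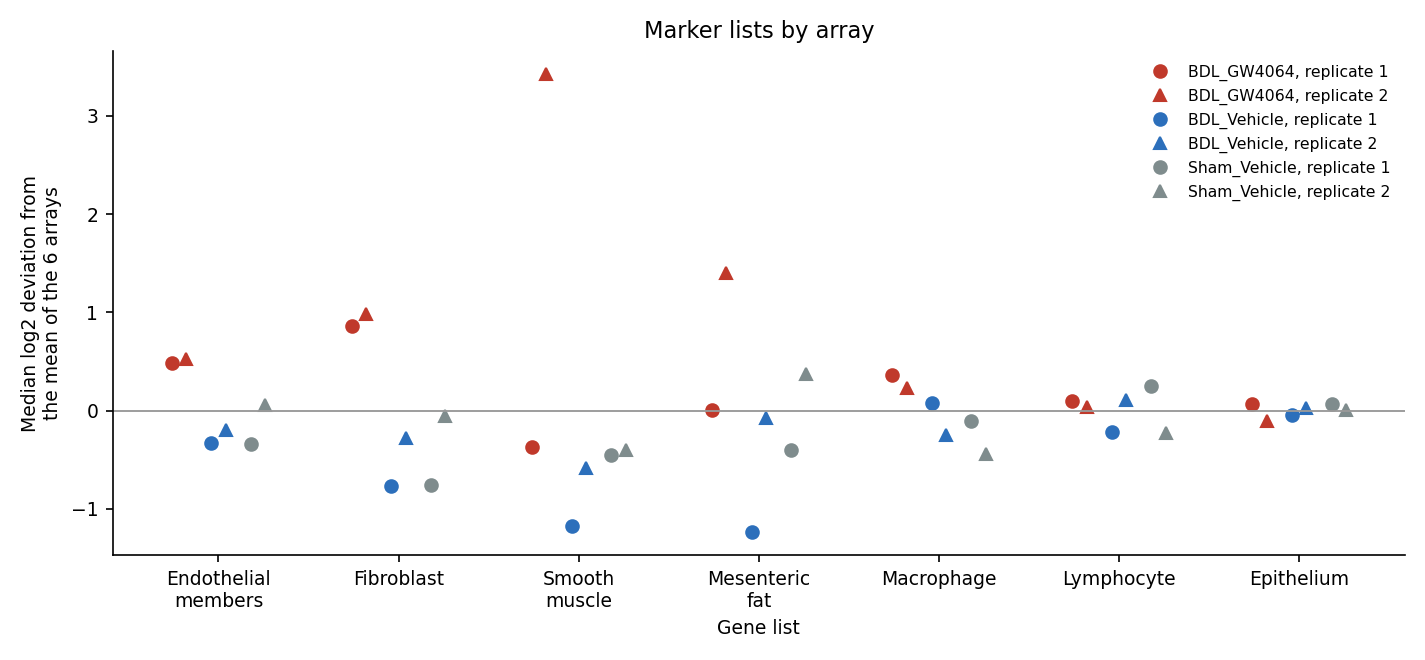
Median over each list's genes past the filter of log2(signal + 4) minus the gene's mean over the 6 arrays (vertical axis), by array and coloured by group, with circles for replicate 1 and triangles for replicate 2. The endothelial members lie at 0.49 and 0.52 in BDL_GW4064 and between -0.34 and 0.06 on the 4 vehicle arrays. Fibroblast markers likewise lie at 0.86 and 0.98 in BDL_GW4064 and between -0.77 and -0.05 on the 4 vehicle arrays. Macrophage markers are at 0.36 and 0.23, against -0.44 to 0.07. Smooth muscle markers are at 3.43 in BDL_GW4064 replicate 2 and at -0.37 in replicate 1.

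The array set is the other feature that moves with the treatment, since both BDL_GW4064 arrays lie in the set with low 18S signal. Within that set the only vehicle array is BDL_Vehicle replicate 2 alone. Both BDL_GW4064 arrays exceeded it in 10 of 10 members, against 37.7% of all genes. Only Cdh5 adds to the counts above, as the other 9 had no overlap with either BDL_Vehicle array. Within that set the log2 differences were 1.08 for Esam, 0.89 for Egfl7, 0.74 for Eng and 0.60 for Vwf. They were 0.57 for Cdh5, 0.54 for Kdr and 0.39 for Plvap. BDL_Vehicle replicate 2 read below the floor for Cdh5, at 25.6. For Pecam1, Cldn5 and Tek it also read below the floor, at 33.1, 21.9 and 21.9, and no difference is given. In that fit, the smallest limma adjusted p of a tested member was 0.911.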

How the data were processed

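Gene expression in ileum was measured on 6 Affymetrix arrays, in 3 groups of 2 taken from the titles. Biotin-labelled cRNA was made from 5 µg of RNA, per the labels' protocols. The deposited values were intensity values on a linear scale, named MAS5 signals per the submitters' processing notes, and the authors had scaled all arrays to a common trimmed mean. The MAS5 version and settings are not stated, and detection calls were not used here. Of 22690 probe sets, 64 controls were left out, 20380 had 1 gene in the platform annotation, 691 several and 1555 none; names of 20351 were compared with RefSeq (GRCm38.p6) and 0 differed.

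Log2(signal + 4) was analysed, with 4 the rounded 10th percentile of all signals. A fold on this scale understates changes of dim genes. Probe sets in the lowest 40% by mean were left out, leaving 13575. limma (version 3.58.1, R 4.3.3) fitted 1 mean per group to all 6 arrays, with the prior variance trended on signal (residual degrees of freedom 3, prior 4.71). P-values were adjusted per comparison by Benjamini-Hochberg over all 13575 probe sets, at 0.05. The fit was tested on simulated data. A gene was represented by its brightest probe set. A group with both arrays under 37.1 was given 37.1 itself, and its fold is then written as "at least".

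All members are named. From each list up to 4 genes with the smallest p in BDL_GW4064 against BDL_Vehicle are named, and the 8 genes most like the members' mean profile by Pearson r; other genes beside these were named for the cell type they mark. Members and lists were chosen with earlier results of these data known. The replicate numbers are not stated to pair the arrays. Alternatives changed the scaling, pseudocount, filter, prior, arrays used, block, array set, weights and probe sets.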

Additional observations from a re-analysis of the deposited data

How the results depend on the processing

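Of 19 alternatives, 6 left out an array. In the 18 that gave a count, 0 members passed limma's adjusted threshold in any comparison they bear on; the mean over probe sets gave none, as Egfl7 had no test there. Over all 19, 464 of 483 values of single genes kept their direction, but many of these could not change. Fits with no filter, no trend, a robust prior, the replicate block, array weights or only 4 arrays gave the main fit's log2 differences. The median log2 difference of tested members between BDL_GW4064 and BDL_Vehicle was 0.70 with a pseudocount of 16, 0.93 with a filter at 60%, which left Plvap alone, 0.60 with the array set held constant, and 0.60 to 0.89 with 1 array left out. With that stricter filter it was 1.72 for BDL_GW4064 against Sham_Vehicle and 0.79 for BDL_Vehicle against Sham_Vehicle, where leaving out an array gave 0.44 to 0.84 and -0.21 to 0.053. The members higher without overlap in BDL_Vehicle than in Sham_Vehicle then numbered 0 to 3. With an array left out, signs also turned in BDL_Vehicle against Sham_Vehicle for Eng (-0.097 to 0.066), Cdh5 (-0.57 to 0.096), Kdr (-0.55 to 0.053), Vwf (-0.31 to 0.71), Pecam1 (-0.033 to 1.22) and Plvap (-0.11 to 1.68). They turned in BDL_GW4064 against BDL_Vehicle for Cdh5 (-0.095 to 0.57), and in BDL_GW4064 against Sham_Vehicle for Cdh5 (-0.25 to 0.25), Tek (-0.37 to 0.17) and Cldn5 (-0.15 to 0.47). Values of Pecam1 and Tek there rest on signals below the floor and give the sign of a fit, not a measured size. Eng in BDL_Vehicle against Sham_Vehicle was 0.047 after quantile normalisation and 0.035 after median centring, and Cdh5 was 0.096 with the array set held constant. Cdh5 in BDL_GW4064 against Sham_Vehicle was -0.011 with median centring and -0.00098 with a pseudocount of 1. The cause of these moves was not tested, apart from the fewer arrays or genes that some alternatives use. With the replicate block the medians were 0.79, 0.77 and -0.18, and 0 members passed (smallest adjusted p 0.361, 0.203 and 0.821, limma). The labels do not say that a number pairs arrays, and deviations of replicate 1 correlated at -0.12, 0.09 and 0.04 between groups. Signals near 37.1 limit Cdh5, Pecam1, Cldn5 and Tek most.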
